A study of Mus musculus with 2 samples.

Results

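The genes described here keep proteins folding in the endoplasmic reticulum (ER). They number 34, chosen by name from 26440 genes in the deposited tables. They fall into 4 stress sensors and transcription factors, 11 chaperones and co-chaperones, 4 disulfide isomerases, 10 genes of ER-associated degradation (ERAD) and 5 genes of the translocon. Each was found through 1 RefSeq accession, and all 34 reached at least 1 FPKM in one of the libraries. Derl3 reached it in the knockout library only. FPKM expresses fragments relative to the length of the transcript and the size of the library.

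Livers came from BALB/c mice at day 11 after birth. One library was from liver labelled SRSF2-/-, a knockout that the study describes as limited to the liver, and 1 was from wild-type (WT) liver. SRSF2 is a serine/arginine-rich protein that binds exons and acts in splicing. The promoter that drove the deletion, the exons removed and the number of animals in each library are not stated in the sources used here. Srsf2 itself stood at 11.8 FPKM in the knockout and 27.9 FPKM in the wild-type library. Since each genotype had a single library, no p-value could be given, and every difference describes these 2 libraries only. In whole liver, fewer cells of a type and less RNA per cell cannot be told apart.

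Hepatocytes secrete most plasma proteins, and each of these enters the ER through a protein channel, the translocon. Inside, chaperones and disulfide isomerases fold it, and ERAD returns misfolded copies to the cytosol for destruction. The ER membrane proteins IRE1, PERK and ATF6 sense an excess of unfolded protein and start the unfolded protein response. IRE1 splices the mRNA of the transcription factor XBP1 into its active form, PERK slows translation and raises ATF4 and CHOP, and ATF6 is cleaved to a transcription factor. XBP1 and ATF6 act on the promoters of chaperone and ERAD genes.

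Some of these promoters carry an element through which ATF6 and XBP1 are known to act, and its sites are shown because 6 chaperone genes share them. The ER stress response element (ERSE) was searched on both strands as CCAAT followed, after 9 bases, by CCACG. The windows were those of RefSeq on GRCm38.p6, 250 bases before to 50 bases after the annotated start, and the tables hold windows for 29 of the 34 genes, with 1 gene having 2. A gene was counted once where any window of it held the letters. Atf6, Derl1, Hyou1, Manf and Sec61a1 have no entry there. Exact matches stood in the windows of 9 of 29 genes (31.03%), against 37 of 27025 genes of the whole table, these 9 included (0.137%). The genes were chosen by name for their part in this pathway, so the contrast describes the list and is no independent finding. By role, 6 of 9 chaperone genes, 1 of 4 disulfide isomerase genes and 2 of 9 ERAD genes held one, while 0 of 3 sensor or transcription factor genes and 0 of 4 translocon genes did. The sites are printed on the strand that matches, with the fixed letters in capitals.

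Hspa5, chr2:34772025-34772043, plus strand: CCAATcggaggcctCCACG
Hsp90b1, chr10:86705638-86705656, minus strand: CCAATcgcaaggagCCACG
Hsp90b1, chr10:86705533-86705551, plus strand: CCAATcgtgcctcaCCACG
Calr, chr8:84847075-84847093, plus strand: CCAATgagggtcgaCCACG
Canx, chr11:50325800-50325818, minus strand: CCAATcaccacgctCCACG
Dnajc3, chr14:118937827-118937845, plus strand: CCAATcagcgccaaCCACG
Creld2, chr15:88819520-88819538, minus strand: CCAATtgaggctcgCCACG
Pdia6, chr12:17266491-17266509, plus strand: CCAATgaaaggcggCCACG
Syvn1, chr19:6046532-6046550, plus strand: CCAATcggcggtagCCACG
Derl3, chr10:75893242-75893260, minus strand: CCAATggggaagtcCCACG

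A shorter form, ERSE-II, was searched as ATTGG followed, after 1 base, by CCACG. It stood in 2 of 29 genes, against 12 of 27025 genes (0.0444%).

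Herpud1, chr8:94386377-94386387, plus strand: ATTGGgCCACG
Dnajb11, chr16:22857852-22857862, plus strand: ATTGGcCCACG

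The UPRE core TGACGTGG, an XBP1 motif, stood in 0 of 29 genes, against 0.714% of all genes. The amino acid response element TGATGNAA, through which ATF4 is known to act, stood in 1 of 29 genes, Herpud1, against 4.51% of all genes. CCAAT alone stood in 23 of 29 genes (41.1% of all genes) and CCACG alone in 24 of 29 (35.5%), and both are contained in the longer elements. A match is a run of letters, and binding was not measured.

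The 250 bases before the start of Hspa5, the classic target of the response, are printed 5′ to 3′ from chr2:34771840-34772089 on the plus strand of GRCm38.p6. Its 1 exact ERSE is in capitals and lies 65 bases before the start.

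Hspa5: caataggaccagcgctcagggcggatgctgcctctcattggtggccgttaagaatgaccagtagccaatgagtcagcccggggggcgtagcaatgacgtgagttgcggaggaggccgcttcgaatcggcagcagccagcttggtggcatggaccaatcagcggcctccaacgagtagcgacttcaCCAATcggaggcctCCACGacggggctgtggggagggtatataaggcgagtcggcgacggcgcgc

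**Figure D1:**
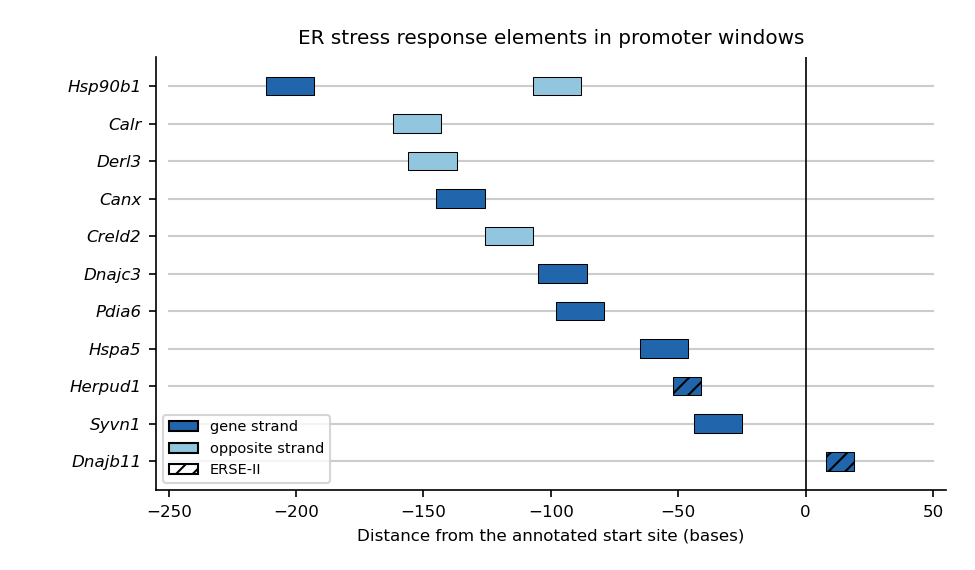
Position of each exact ERSE (19 bases) and ERSE-II (hatched, 11 bases) in the RefSeq promoter windows, with the distance in bases from the annotated start on the horizontal axis and 1 gene per row. Dark bars lie on the gene's strand and light bars on the opposite strand; the Dnajb11 site begins 8 bases into the transcript and the others lie before the start.

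The knockout library held more transcript of the stress sensors Ern1, Eif2ak3 and Atf6, of the co-chaperone Dnajb9 and of the ERAD gene Derl3, and each of these 5 was at least 2-fold higher. The remaining 29 genes lay within 2-fold, among them every disulfide isomerase and translocon gene listed, and 0 of 34 were at least 2-fold lower. The size of a difference was taken as log2((knockout FPKM + 1) / (wild-type FPKM + 1)), which understates the change of low genes.

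The 5 higher genes are 14.7% of the 34, against 19.2% of the 12477 genes that had at least 1 FPKM in either library. Of the 33 listed genes with at least 1 FPKM in the wild-type library, 4 were higher, against 1752 of 10774 genes overall. Lower genes made up 2.95% of all genes. The median log2 ratio of the 34 genes was 0.20, and that of all tested genes was 0.55, so 8 genes lay above the median of all genes and 26 below it. After centring on that median, 1 of 34 genes was at least 2-fold higher and 0 were lower, against 5.67% and 6.66% of all genes. The higher gene was Derl3, which reached 1 FPKM in the knockout library only. Sdf2l1 and Xbp1 were just short of 2-fold lower, each at -0.99 on the log2 scale.

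Counting error alone is given by 95% intervals (exact Clopper-Pearson) on the ratio of reads, rescaled to FPKM. They lay wholly above 1 for 21 genes (76.8% of all tested genes), wholly below 1 for 7 (11.1% of all tested genes), and spanned 1 for 6. In the order of the 34 ratios, 27 of 33 pairs of neighbours had overlapping intervals. The libraries held 22111605 reads (knockout) and 22407743 reads (wild type) on annotated transcripts. The 20 most abundant genes took 21.5% of the reads in the knockout and 37.5% in the wild-type library. FPKM values are shares of a library, so the direction was read under 4 scalings, namely FPKM as deposited, TPM, a common sum without the 20 most abundant genes, and centring. In all 4, 8 genes were higher in the knockout library and 10 were lower, while 16 changed sign. Each scaling moves all genes by nearly the same amount, so agreement among the 4 is not independent support for a direction. The 8 higher genes are the same 8 that lay above the median of all genes. The share of all tested genes with the same sign in all 4 scalings was not counted.

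**Figure D2:**
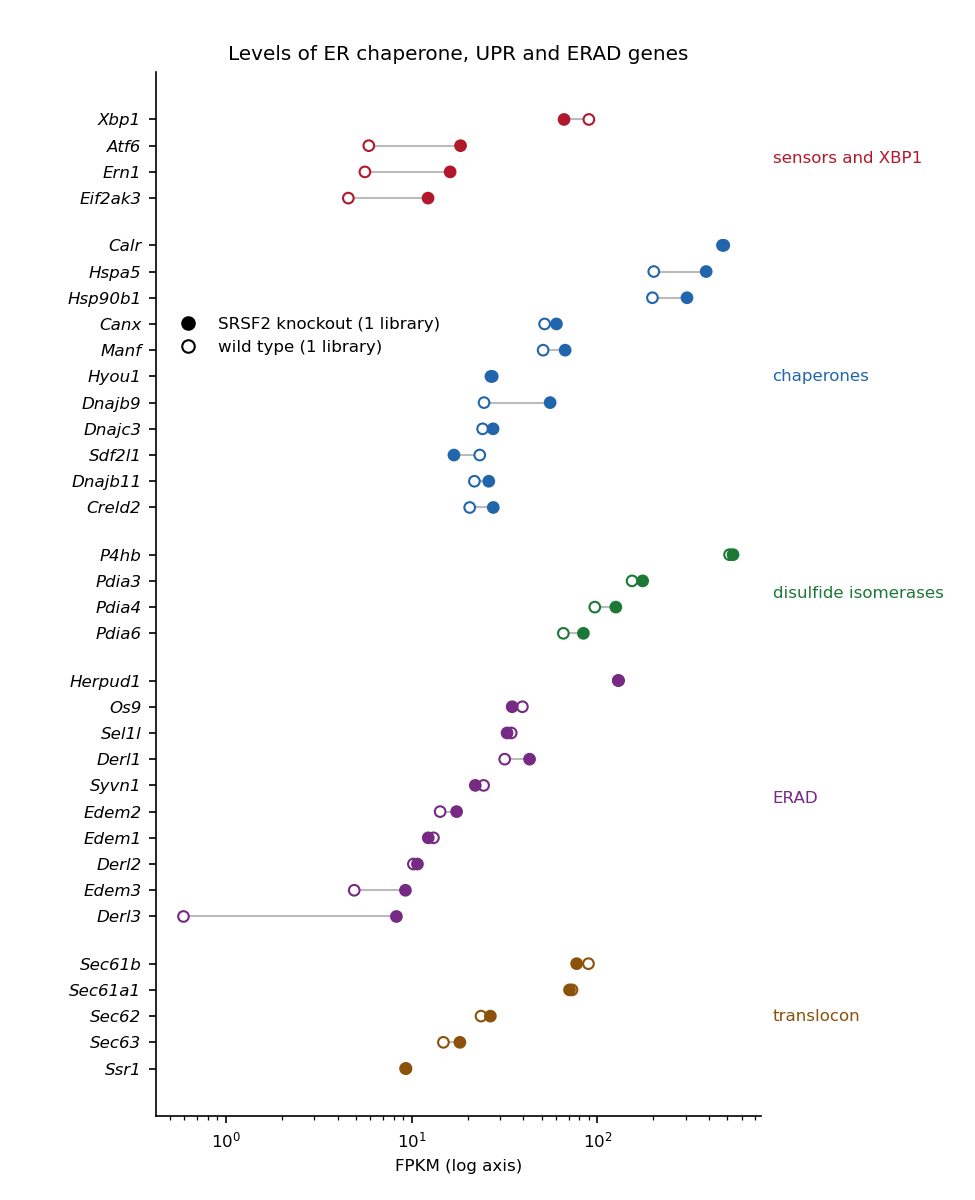
FPKM of the 34 genes on a log axis, grouped by role, with filled circles for the SRSF2 knockout library and open circles for the wild-type library. The sensors, Dnajb9 and Derl3 are set apart from a majority of genes whose circles nearly coincide, such as Calr at 470.1 FPKM in the knockout and 478 FPKM in the wild-type library.

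The sensors are the membrane proteins that start the response, and their transcripts were higher by similar folds. Ern1, which encodes the kinase and RNase IRE1, stood at 16.1 FPKM in the knockout and 5.61 FPKM in the wild-type library, 2.87-fold higher (95% interval 2.62 to 3.16). Eif2ak3, which encodes the kinase PERK, stood at 12.3 FPKM in the knockout and 4.57 FPKM in the wild-type library, 2.69-fold higher (2.43 to 2.97). Atf6 stood at 18.3 FPKM in the knockout and 5.89 FPKM in the wild-type library, 3.11-fold higher (2.92 to 3.33). Their 3 intervals overlapped, and in all 4 scalings the 3 genes were higher. After centring, their log2 ratios were 0.82 for Ern1, 0.70 for Eif2ak3 and 0.94 for Atf6, short of 2-fold.

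Xbp1, the transcription factor whose mRNA IRE1 splices, went the other way. It stood at 66.1 FPKM in the knockout and 89.9 FPKM in the wild-type library, 1.36-fold lower (1.30 to 1.42), and it was lower in all 4 scalings. Gene totals do not separate spliced from unspliced Xbp1, so its active form was not measured. The median log2 ratio of the class was 1.31, which is 0.76 when set against all genes.

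Markers of other liver cells are set beside the sensors, against a higher knockout value in 84.5% of all tested genes. Among macrophage markers the knockout value was the higher in 9 of 9, with a median log2 ratio 0.34 above that of all genes, and they summed to 478 FPKM in the knockout and 214 FPKM in the wild-type library. For stellate cells and fibroblasts 11 of 11 had a higher value, with a median 0.61 above that of all genes and sums of 566 FPKM in the knockout and 210 FPKM in the wild-type library. Of the 8 bile duct markers tested, 4 reached 1 FPKM in the knockout library only, and the listed markers summed to 117 FPKM in the knockout and 43.9 FPKM in the wild-type library. Endothelial markers summed to 187 FPKM in the knockout and 151 FPKM in the wild-type library, and 7 of 9 had a higher knockout value, below the share of all genes, with a median of -0.20 relative to all genes. No marker in these lists was at 0 reads in either library. Hepatocyte markers summed to 41217 FPKM in the knockout and 79532 FPKM in the wild-type library, with a higher knockout value in 6 of 14. Of these sums, Alb made up 25492 FPKM in the knockout and 50399 FPKM in the wild-type library. Alb and several other markers of this list are also among the secreted proteins below, so the sum mostly follows those transcripts and does not measure hepatocyte content. The part of these cell types in the sensor levels was not tested.

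Chaperones bind nascent and misfolded chains, and here the size of the difference varied from gene to gene. Hspa5, the ER HSP70 known as BiP or GRP78, stood at 384 FPKM in the knockout and 201 FPKM in the wild-type library, 1.91-fold higher (1.87 to 1.95). Hsp90b1, the ER HSP90 known as GRP94, stood at 303 FPKM in the knockout and 198 FPKM in the wild-type library, 1.53-fold higher (1.502 to 1.57). Dnajb9, or ERdj4, a BiP co-chaperone that also acts in ERAD, stood at 55.6 FPKM in the knockout and 24.5 FPKM in the wild-type library, 2.27-fold higher (2.12 to 2.43). These 3 genes were higher in all 4 scalings, although Hsp90b1 was 0.06 above the median of all genes on the log2 scale after centring. Dnajb9 alone of the 11 chaperone genes passed 2-fold as deposited.

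The calcium-binding lectins that hold glycoproteins during folding differed little. Calr, which encodes calreticulin, stood at 470.1 FPKM in the knockout and 478 FPKM in the wild-type library, and the interval of its ratio spanned 1 (0.966 to 1.001). Canx, which encodes calnexin, stood at 60.2 FPKM in the knockout and 52.0 FPKM in the wild-type library. Hyou1, the large HSP70-like nucleotide exchange factor of BiP, stood at 26.7 FPKM in the knockout and 27.2 FPKM in the wild-type library, and its interval also spanned 1 (0.937 to 1.033). Calr and Hyou1 had lower values in all 4 scalings, with log2 ratios between -0.58 and -0.01, and Canx changed sign between scalings.

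Among the other helpers of BiP, Dnajb11 (ERdj3) stood at 26.03 FPKM in the knockout and 21.8 FPKM in the wild-type library. Dnajc3, also called p58IPK, stood at 27.5 FPKM in the knockout and 24.1 FPKM in the wild-type library. Their ratios were 1.195 and 1.14 as deposited, and both changed sign with scaling. Manf, a secreted ER stress factor, stood at 67.0 FPKM in the knockout and 51.0 FPKM in the wild-type library. Creld2, an ER stress-induced protein with EGF-like repeats, stood at 27.5 FPKM in the knockout and 20.5 FPKM in the wild-type library. Manf and Creld2 lay below the median of all genes although their ratios were 1.31 and 1.34. Sdf2l1, a subunit of BiP chaperone complexes, stood at 16.9 FPKM in the knockout and 23.3 FPKM in the wild-type library, 1.38-fold lower (1.22 to 1.55), and was lower in all 4 scalings. The class median was 0.25 on the log2 scale, or -0.31 relative to all genes.

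Disulfide isomerases form and reshuffle the cysteine bonds of secreted proteins, and they include the most abundant transcript of the 34. P4hb, the founding isomerase PDI, stood at 536 FPKM in the knockout and 513 FPKM in the wild-type library, 1.04-fold higher (1.03 to 1.06). Pdia3, which works with calnexin and calreticulin on glycoproteins, stood at 175 FPKM in the knockout and 153 FPKM in the wild-type library. Pdia4 (ERp72) stood at 126 FPKM in the knockout and 96.7 FPKM in the wild-type library, and Pdia6 (P5) stood at 84.0 FPKM in the knockout and 65.5 FPKM in the wild-type library. All 4 genes had intervals wholly above 1 as deposited, with log2 ratios between 0.06 and 0.37. All 4 nevertheless lay below the median of all genes, and all 4 changed sign between scalings. The class median was 0.27, or -0.28 relative to all genes.

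**Figure D3:**
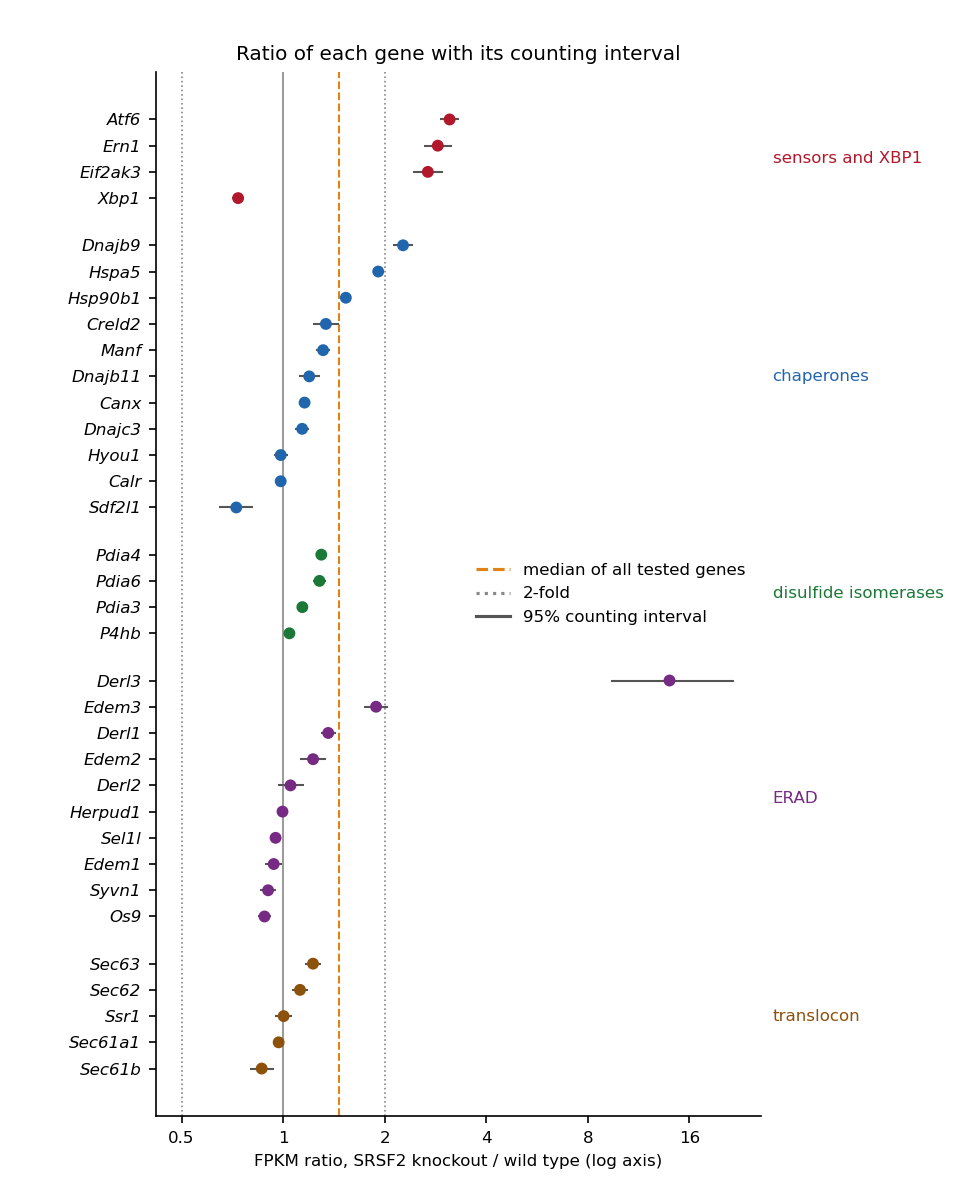
FPKM ratio of SRSF2 knockout to wild-type library for the 34 genes on a log axis, with horizontal bars for the 95% counting interval, dotted lines at 2-fold and a dashed line at the ratio that corresponds to the median log2 ratio of 0.55 over all tested genes. Of the 34 genes, 8 lie right of the dashed line and 26 left of it, and Derl3 has the widest interval.

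ERAD recognises misfolded proteins, moves them out of the ER and marks them with ubiquitin. At the recognition step, Edem1 stood at 12.3 FPKM in the knockout and 13.1 FPKM in the wild-type library. Edem2 stood at 17.5 FPKM in the knockout and 14.2 FPKM in the wild-type library. Edem3 stood at 9.27 FPKM in the knockout and 4.92 FPKM in the wild-type library. These related genes encode mannosidase-like proteins that trim the sugar chains of terminally misfolded glycoproteins. They lay apart beyond counting error, with Edem3 at 1.89-fold higher (1.74 to 2.05), Edem2 at 1.23-fold higher (1.12 to 1.34) and Edem1 at 1.07-fold lower (1.01 to 1.13). Edem3 was higher and Edem1 lower in all 4 scalings. Os9, a lectin that delivers such glycoproteins to the ligase, stood at 34.8 FPKM in the knockout and 39.5 FPKM in the wild-type library.

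Genes of the ubiquitin ligase complex at the core of ERAD lay close to or slightly below a ratio of 1. Syvn1, which encodes the ligase HRD1, stood at 22.03 FPKM in the knockout and 24.4 FPKM in the wild-type library. Sel1l, its membrane adaptor, stood at 32.6 FPKM in the knockout and 34.4 FPKM in the wild-type library. Herpud1, a stress-induced partner of that complex, stood at 129 FPKM in the knockout and 129.9 FPKM in the wild-type library. Syvn1, Sel1l and Os9 were lower in all 4 scalings and their intervals lay wholly below 1, whereas the interval of Herpud1 spanned 1 (0.965 to 1.03).

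The derlins, membrane proteins of the exit channel, differed among themselves. Derl1 stood at 43.1 FPKM in the knockout and 31.7 FPKM in the wild-type library. Derl2 stood at 10.8 FPKM in the knockout and 10.2 FPKM in the wild-type library. Derl3 had 359 reads in the knockout and 26 in the wild-type library, or 8.29 FPKM in the knockout and 0.593 FPKM in the wild-type library, 13.97-fold higher (9.38 to 21.7). Derl3 was the lowest of the 34 genes in either library, and it was past 2-fold in all 4 scalings. The median of the ERAD class was 0.03 on the log2 scale, and -0.52 relative to all genes.

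Derl3 is known to be high in exocrine pancreas, and transcripts of that tissue were also higher in the knockout library. The 19 pancreatic enzyme and marker genes listed summed to 1053.5 FPKM in the knockout and 41.98 FPKM in the wild-type library. Of these sums, Pnliprp1 made up 109 FPKM in the knockout and 33.3 FPKM in the wild-type library. Of the 17 that reached 1 FPKM in either library, 14 did so in the knockout library only, so that their folds are not counted. In the knockout library 0 of the 19 were listed at 0 reads, and in the wild-type library 5 were. Ctrb1, which encodes chymotrypsinogen, stood at 235 FPKM in the knockout and 0.170 FPKM in the wild-type library. Pdia2, the disulfide isomerase of pancreatic acinar cells, had 74 reads in the knockout and 2 in the wild-type library. Plasma and B cell markers, from another cell type rich in ER, summed to 75.7 FPKM in the knockout and 75.9 FPKM in the wild-type library, of which Sdc1, also a hepatocyte gene, made up 66.5 FPKM in the knockout and 63.1 FPKM in the wild-type library. The part of pancreatic RNA in the Derl3 level, or in other genes described here, was not tested.

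The translocon carries new chains across the ER membrane, and its genes had the lowest median of the 5 classes. Sec61a1, which encodes the channel subunit, stood at 70.7 FPKM in the knockout and 72.9 FPKM in the wild-type library. Sec61b, a small channel subunit, stood at 77.3 FPKM in the knockout and 89.4 FPKM in the wild-type library, 1.16-fold lower (1.07 to 1.25). Ssr1, a subunit of the translocon-associated complex, stood at 9.33 FPKM in the knockout and 9.30 FPKM in the wild-type library. The channel genes Sec61a1 and Sec61b had lower values in all 4 scalings, but the intervals of Sec61a1 (0.935 to 1.006) and Ssr1 (0.947 to 1.06) spanned 1. Sec62, an accessory factor of post-translational entry, stood at 26.5 FPKM in the knockout and 23.6 FPKM in the wild-type library, and Sec63, a J-domain protein that brings BiP to the channel, stood at 18.2 FPKM in the knockout and 14.8 FPKM in the wild-type library. The class median was 0.0047 on the log2 scale, or -0.55 relative to all genes. No difference between classes was tested.

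Further genes of the pathway were described from lists of the same roles. Targets of the PERK arm and of CHOP had a higher median than each of the 5 classes. It was 1.81 on the log2 scale and 1.26 relative to all genes. Of 16 tested genes, 12 were at least 2-fold higher and 0 lower, against 19.2% and 2.95% of all tested genes. Of the 16, 3 reached 1 FPKM in the knockout library only, and the median of 1.81 includes them. Of the other 13 genes, 9 were at least 2-fold higher, against 1752 of the 10774 genes that reached 1 FPKM in the wild-type library. After centring, 10 of the 16 were at least 2-fold higher, against 5.67% of all tested genes. Ddit3, which encodes CHOP, stood at 38.7 FPKM in the knockout and 2.05 FPKM in the wild-type library. Atf3, one of the 3 genes that reached 1 FPKM in the knockout library only, stood at 19.1 FPKM there. It stood at 0.439 FPKM, or 23 reads, in the wild-type library. Nupr1, a chromatin protein induced by stress, stood at 248 FPKM in the knockout and 3.67 FPKM in the wild-type library. ATF4, which acts upstream of several of these genes, is also raised by kinases other than PERK.

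The remaining lists of the secretory pathway held 140 tested genes, with a median of 0.38 on the log2 scale and -0.17 relative to all genes. Of these, 9 (6.43%) were at least 2-fold higher and 1 (0.714%) was lower, against 19.2% and 2.95% of all tested genes. The counts of each list below are to be read beside the same shares. Other ERAD genes had a median of 0.57 with 2 of 29 higher, among them Nploc4, a cofactor of the extraction motor VCP, at 25.6 FPKM in the knockout and 11.5 FPKM in the wild-type library. Other translocation genes had a median of 0.40 with 2 of 24 higher, and these were Get1, which reached 1 FPKM in the knockout library only, and Get3, both of which act in inserting tail-anchored proteins, with Get3 at 41.7 FPKM in the knockout and 19.2 FPKM in the wild-type library. Other folding factors had a median of 0.33 with 1 of 21 higher, the selenoprotein gene Selenom at 11.7 FPKM in the knockout and 3.93 FPKM in the wild-type library. Oligosaccharyltransferase genes, which attach sugar chains, had a median of 0.14 with 0 of 11 past 2-fold in either direction.

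Single genes stood apart from their lists, whose counts stand beside 19.2% of all tested genes higher and 2.95% lower. Among the glycoprotein cycle and ER exit genes, with a median of 0.23 and 1 of 23 higher, Kdelr3, a receptor that returns chaperones to the ER, stood at 9.71 FPKM in the knockout and 1.71 FPKM in the wild-type library, 5.69-fold higher (4.35 to 7.55). Among the other oxidoreductases, with a median of 0.02, Pdia5 was at least 2-fold lower, at 13.7 FPKM in the knockout and 45.6 FPKM in the wild-type library, 3.33-fold lower (3.05 to 3.65). Ero1b, which reoxidises isomerases, stood at 2.36 FPKM in the knockout and 5.70 FPKM in the wild-type library, just short of 2-fold with the pseudocount. Atl3, an ER-phagy receptor, stood at 25.1 FPKM in the knockout and 9.63 FPKM in the wild-type library, while the 5 receptors had a median of 0.53. Among other ER transcription factors and regulators, with a median of 0.57 and 1 of 11 higher, that gene was Bax, a pro-apoptotic BCL-2 family member, at 38.1 FPKM in the knockout and 10.2 FPKM in the wild-type library.

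**Figure D4:**
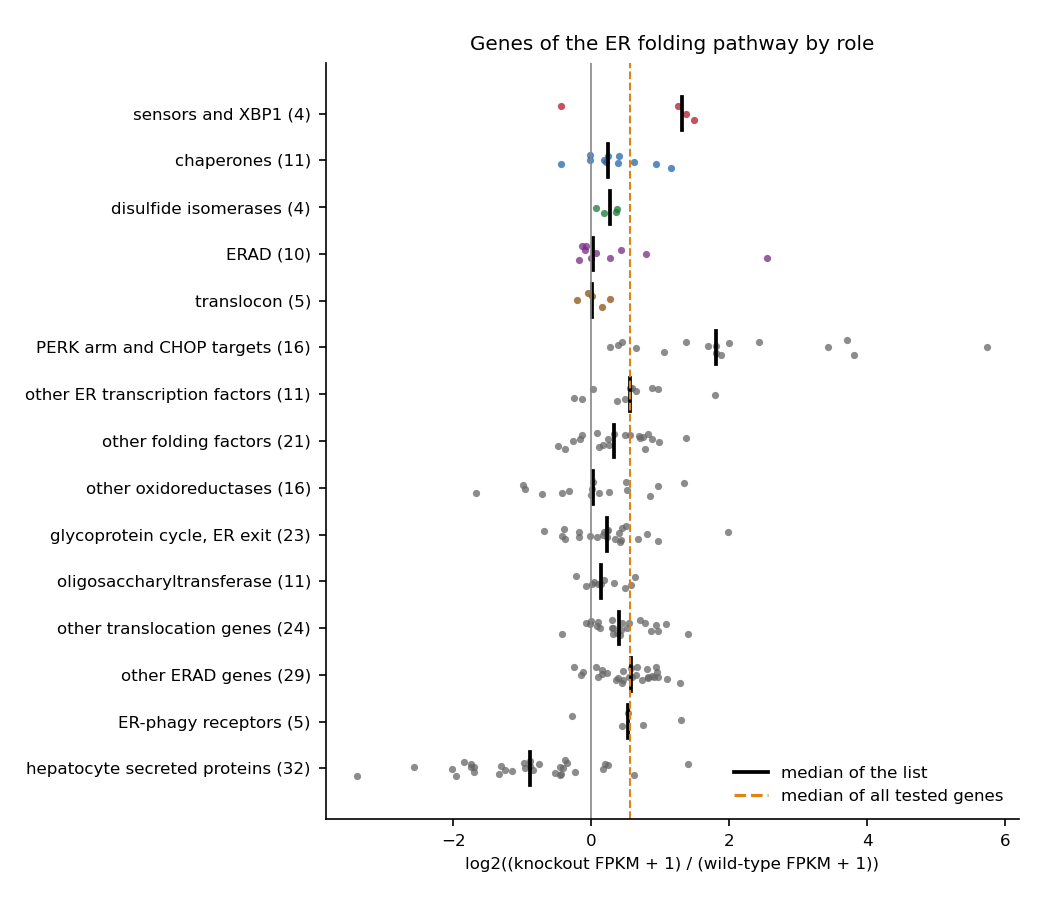
Log2 ratio of each tested gene (points) in the 5 classes and in further lists of the secretory pathway, with the number of genes in brackets, black bars for list medians and a dashed line at the median of all tested genes (0.55). The class of sensors and Xbp1 has a median of 1.31, and the PERK arm and CHOP targets have one of 1.81. The other ER lists lie between 0.0047 and 0.57, and hepatocyte secreted proteins lie at -0.90.

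Of 32 genes for plasma proteins that hepatocytes secrete, 13 were at least 2-fold lower in the knockout library, against 2.95% of all genes, and 1 (Serpina3k) was at least 2-fold higher. The knockout value was lower in 27 of the 32 and higher in 5 (Apoa2, Ambp, Itih3, Rbp4 and Serpina3k), each with an interval wholly above 1. The 32 genes together summed to 91473 FPKM in the knockout and 174450 FPKM in the wild-type library. The chaperones summed to 1465 FPKM in the knockout and 1121 FPKM in the wild-type library, and the disulfide isomerases to 920.5 FPKM in the knockout and 829 FPKM in the wild-type library. Chaperone and isomerase transcripts together came to 2.61 FPKM per 100 FPKM of secreted protein transcripts in the knockout and 1.12 in the wild-type library. This ratio of 2.33 does not depend on how the libraries are scaled to each other. The secreted protein sum in the knockout was 0.524 of the wild-type sum, against 1.31 for chaperones and 1.11 for isomerases. Any genes with an unchanged sum would also rise on this measure, so the rise was not shown to be particular to folding genes.

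The genes with an exact ERSE were set beside those without. The 9 listed genes that held one had a median log2 ratio of 0.35, with 1 at least 2-fold higher, and ranged from -0.14 in Syvn1 to 2.54 in Derl3. The 20 genes with a window and no exact ERSE had a median of 0.11, with 3 higher. Outside the 34 genes, 8 genes with an ERSE were tested, and their median was 0.62, with 1 higher and 1 lower. These counts are to be read beside 19.2% of all tested genes higher and 2.95% lower. The higher listed gene with an ERSE was Derl3. It and the higher gene outside the list reached 1 FPKM in the knockout library only. Both medians of the listed genes lay below the 0.55 of all tested genes. Among the genes with the element, Hspa5 was 1.91-fold higher while Calr, Canx and Syvn1 had ratios of 0.984, 1.16 and 0.903.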

How the data were processed

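One SRSF2 knockout and 1 wild-type liver library were compared, grouped by genotype in the labels. The submitters' processing notes name Bowtie 0.12.2 and build mm9. The counting program, annotation release, use of strand and handling of reads with several matches are not given in these sources, and reads shared with pseudogenes or overlapping genes may be misassigned. Per the file headers, the authors deposited, for every RefSeq accession, its read count and its FPKM. The FPKM worth of 1 read differed between libraries by a factor of 1.012, which scales the intervals. Names came from a RefSeq table of GRCm38.p6 and GENCODE tables, for 23419 of 26449 accessions. Of the listed genes, Mbtps2, Nucb2, Uggt2, Spcs3, Cd68 and Csf1r were not matched. Accessions of a gene were summed, a pseudocount of 1 FPKM was used, and 12477 genes passed a minimum of 1 FPKM in either library. Size rules stood in for tests. Alternatives changed the pseudocount, the filter, the scaling, the accession used or the size rule. Intervals cover counting error only, since amplified reads are not independent molecules.

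The genes and lists were chosen with earlier results of these data known. All 34 genes are named, with up to 3 genes of each other list by size of the log2 ratio, and Srsf2. Alb, Sdc1, Pnliprp1, Apoa2, Ambp, Itih3, Rbp4 and Serpina3k were named after their values were seen. C-terminal ER retention signals were planned but not analysed here. Scripts were tested on simulated data and used matplotlib 3.10.9, scipy 1.17.1, pandas 2.3.3, numpy 2.4.6 and Python 3.11.15.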

Additional observations from a re-analysis of the deposited data

How the results depend on the processing

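No paired analysis was possible because there was 1 library per genotype, and no replicate could be left out. Centring on the median of all genes changed most: 8 of 34 genes lay higher in the knockout library in place of 23, 1 in place of 5 was at least 2-fold higher, and the median log2 ratio was -0.36 in place of 0.20. With a common sum without the 20 most abundant genes these values were 13, 3 and -0.13, and the median of all genes was 0.28 in place of 0.55. The count of higher genes was 3 with a pseudocount of 5, 8 by a 1.5-fold rule and 1 by a 4-fold rule, and it was 5 under each other alternative. The share of all tested genes was 19.2% under the main rule and 5.67% after centring. It was not counted under the other alternatives, so their counts cannot be read as high or low for the listed genes. No gene was 2-fold lower under any alternative run, although after centring Sdf2l1 and Xbp1 each lay just short, at -0.99. Centring of single genes was not combined with another alternative. Relative to all genes, the class medians kept their sign under every alternative run. Without a filter on low values they were 1.01 for the class of sensors and Xbp1, -0.058 for chaperones, -0.035 for isomerases, -0.28 for ERAD and -0.30 for the translocon. With a pseudocount of 5 they were 0.62, -0.085, -0.039, -0.28 and -0.29 in the same order, and with one of 0.1 they were -0.43, -0.41, -0.65 and -0.68 for the last 4. For isomerases they were -0.33 with a filter of 5 FPKM and -0.34 both as TPM and under the common sum. The shifts without a filter follow from testing more low genes, which lowers the median of all genes to 0.31. Depth limits Derl3 most, with 26 wild-type reads.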
